A study of Homo sapiens with 11 samples.

Results

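The comparison described here sets HCT116 cells that received both an siRNA against Staufen1 and decitabine against cells that received neither. HCT116 is an established human colorectal cancer cell line. The combined group, siStau1 DAC, was transfected with Staufen1 siRNA and given decitabine, labelled at 500 nM for 5 days. The reference group, siLuc DMSO, was transfected with luciferase siRNA, a control without a target in human cells, and was treated with the solvent DMSO. Each group had 2 total RNA libraries, so the comparison uses 4 of the 11 libraries of the series. The 4 libraries of the remaining total RNA groups, luciferase siRNA with decitabine (siLuc DAC) and Staufen1 siRNA with DMSO (siStau1 DMSO), were used for levels set side by side. These 2 groups also gave a further comparison, siLuc DAC over siStau1 DMSO, that has no library in common with the first. Total RNA was depleted of ribosomal RNA before sequencing. Knockdown is transient, and the labels do not say whether the libraries of a group came from separate cultures, so the authors' p-values cover only the spread between these libraries, which may be technical.

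Decitabine is a cytidine analogue that is built into DNA and traps DNA methyltransferases there, so that dividing cells lose DNA methylation. Promoters and endogenous retroviruses that methylation had kept silent can then be transcribed, and double-stranded RNA from such elements can be read by the sensors MDA5 and RIG-I, which start the interferon response. Staufen1 is a protein that binds double-stranded RNA and acts in RNA transport and decay. The design of the series asks how loss of Staufen1 bears on the response to decitabine, and the comparison of both treatments with neither gives the net difference.

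The deposited values are FPKM, fragments per length of transcript and scaled to library size, with 1 value per gene and group. Values of single libraries were not used, so neither a spread over replicates nor a depth can be stated. A gene was counted as called where the authors' deposited table gives a q-value under 0.05. A log2 ratio is the ratio of siStau1 DAC over siLuc DMSO after 0.1 FPKM was added to both, which understates the change of low genes. Levels of the 4 groups always stand in this order: siLuc DMSO, then siLuc DAC, then siStau1 DMSO, and siStau1 DAC last. In bulk RNA, a change in the number of cells that express a gene and a change in RNA per cell cannot be told apart.

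STAU1, the knockdown target, had 35.5, 33.7, 30.0 and 27.1 FPKM in the 4 groups. The siStau1 DAC level was the lowest, with a log2 ratio of -0.39, and the authors' deposited table gives it q = 0.590, so the label rests on a small transcript difference that was not called. HCT116 is an epithelial line, and some of its epithelial markers were abundant. EPCAM, a surface adhesion protein, had 259, 117, 338 and 179 FPKM, and KRT18, an epithelial keratin, had 681, 3469, 509 and 2415 FPKM. Others were scarce: of 15 colon epithelial markers, 2 were listed at 0 in siLuc DMSO. A further count is that 4 were not tested, with under 1 FPKM in siLuc DMSO and in siStau1 DAC. Markers of other lineages were near 0 in siLuc DMSO, and their sums were higher in both decitabine groups than in both DMSO groups. The summed level of 9 fibroblast markers was 1.85, 14.1, 1.32 and 9.27 FPKM in the 4 groups. That of 10 leukocyte markers was 1.81, 26.8, 0.956 and 14.0, and that of 7 endothelial markers 0.227, 1.72, 0.641 and 1.77. Of these, 3, 5 and 3 markers were listed at 0 in siLuc DMSO. In the same order, 2, 4 and 2 markers were tested, and 1, 2 and 1 were called higher: THY1, CD3D, PTPRC and PECAM1. Of the tested ones, 0, 2 and 1 were listed at 0 in siLuc DMSO. Of 11 tested colon epithelial markers, CDX1 and KRT19 were called higher and 0 lower, against 4.02% of all tested genes called higher. CDX1 was listed at 0 in siLuc DMSO. A gene at 0 there could enter the test only through siStau1 DAC, and 59.2% of all such tested genes were called.

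FPKM are shares of a library, and the 3 most abundant genes, the small non-coding RNAs SNORD3A, RN7SK and RPPH1, took 31.1% of the sum in siLuc DMSO and 41.1% in siStau1 DAC. Of 58699 genes in the table, 16909 were tested and 842 were called, 4.98% of those tested. The called genes were mostly higher in siStau1 DAC: 679 rose, 4.02% of tested genes, and 163 fell, 0.964%. At an unadjusted p under 0.05 in the authors' deposited table there were 2305. The deposited q-value adjusts over all 6 comparisons, and adjusting within this comparison alone left 714 calls. Of the genes named in the text, those called by the deposited q-value and not by the other were BTC, EYA4, HIST1H2BD, HMGN5, HMMR, ICAM1, KRT19, OSGEPL1, POLE2, RAB26, RN7SL5P, SNHG6 and ZC3H6. Among 12566 genes that reached 1 FPKM in siStau1 DAC and in siLuc DMSO, the median log2 ratio was -0.016 and the middle of the distribution was narrow, with quartiles of -0.42 and 0.41. Of these genes, 822 were at least 2-fold higher, of which 201 were called, and 740 were at least 2-fold lower, of which 138 were called. The called genes of this set numbered 210 higher, with a median log2 ratio of 1.57, and 149 lower, with a median of -1.27.

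**Figure D1:**
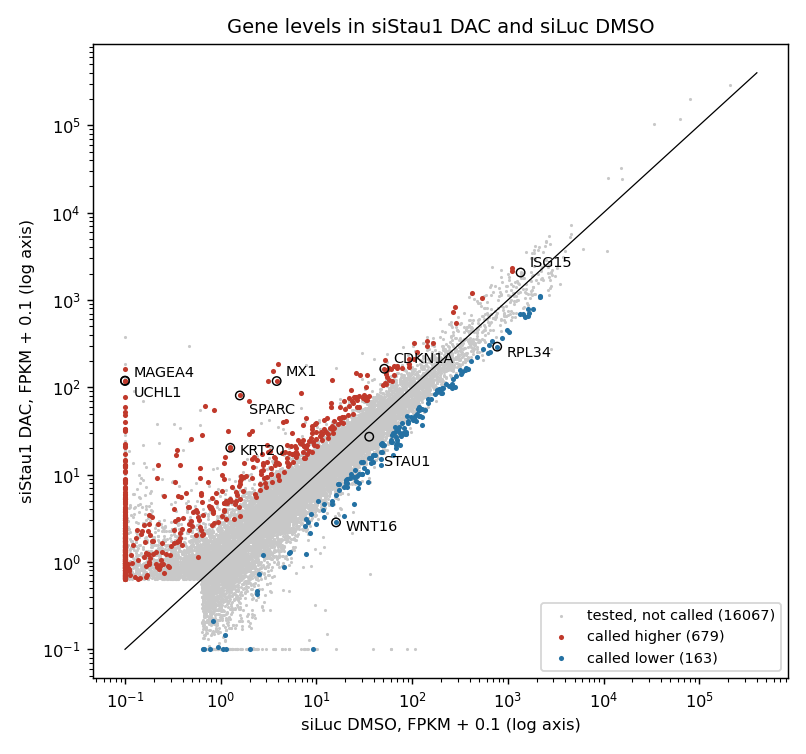
Each point is a tested gene, with its FPKM plus 0.1 in siLuc DMSO (x axis) and in siStau1 DAC (y axis), both on log axes, and the line marks equal levels. The 679 called higher genes (red) are spread along the low end of the x axis, with a column of genes listed at 0 at its left edge, and the 163 called lower genes (blue) lie mostly above 10 FPKM.

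Rising and falling genes started from different levels. Of 581 tested genes listed at 0 in siLuc DMSO, 344 were called higher, and a gene at 0 there could enter the test only through its level in siStau1 DAC, so their direction was fixed. Of 2980 genes above 0 and up to 1 FPKM in siLuc DMSO, 125 were called higher and 6 lower. Among 1028 genes above 100 FPKM, 13 were called higher and 59 lower, with a median log2 ratio of -0.26. Calls differed between genes listed at exactly 0 and genes just above it. Of genes with at least 5 FPKM in siStau1 DAC, 44 of 81 listed at 0 in siLuc DMSO were called, against 0 of 24 with a value above 0 and under 0.1 FPKM. TKTL1, a transketolase-like gene, illustrates this, with 0.0254, 124, 0.00855 and 91.8 FPKM and q = 0.565 in the authors' deposited table. The median siStau1 DAC level of the 581 genes was 1.16 FPKM, and 131 of the 344 called among them were under 1 FPKM. Without genes listed at 0 in either group, 335 genes were called higher and 156 lower.

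Genes that were listed at 0 and became abundant included germline genes, a neuronal enzyme and histone genes. UCHL1 (GENCODE 29, GRCh38, chromosome 4, 41256413 to 41268455, plus strand), a ubiquitin hydrolase of neurons, had 0, 155, 0 and 118 FPKM. MAGEA4 (chromosome X, 151912509 to 151925170, plus strand), a cancer-testis antigen, had 0, 97.5, 0 and 119 FPKM. Both decitabine groups were high for these genes. SPARC (chromosome 5, 151661096 to 151687165, minus strand), a secreted matrix protein, had the largest rise among protein-coding genes of 1 FPKM or more in both, with 1.48, 52.9, 1.48 and 80.6 FPKM and a log2 ratio of 5.67. Their promoters differ in CpG dinucleotides, the sites that DNA methyltransferases act on. Below are the 250 bases before the RefSeq start of UCHL1 (GRCh38.p14, chr4:41256678-41256927, plus strand) and of SPARC (chr5:151686916-151687165, minus strand), with each CG in capitals. RefSeq and GENCODE starts differ for some genes, so such a window can lie within the GENCODE gene.
UCHL1: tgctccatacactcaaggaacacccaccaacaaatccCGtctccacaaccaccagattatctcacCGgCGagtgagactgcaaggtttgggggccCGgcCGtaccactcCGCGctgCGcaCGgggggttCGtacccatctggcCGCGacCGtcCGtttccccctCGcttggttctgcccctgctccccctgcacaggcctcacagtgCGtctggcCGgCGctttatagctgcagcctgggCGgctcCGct
SPARC: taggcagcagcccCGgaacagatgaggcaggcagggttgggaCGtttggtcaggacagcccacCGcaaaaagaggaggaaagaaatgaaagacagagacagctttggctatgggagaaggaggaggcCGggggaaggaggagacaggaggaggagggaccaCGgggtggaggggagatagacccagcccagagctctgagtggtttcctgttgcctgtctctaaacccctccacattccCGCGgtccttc
UCHL1 has 20 CG and SPARC has 7. The median over 15307 protein-coding genes is 20, where a gene with several starts counts by the start with the most CG. Methylation itself was not measured in these libraries.

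The other large rises by the same rule were the histone genes described below, MX1 and 3 further genes. PRF1, the pore protein of cytotoxic lymphocytes, had 1.86, 58.5, 1.94 and 70.3 FPKM (log2 ratio 5.17). VIM, the intermediate filament of mesenchymal cells, had 1.08, 44.4, 1.21 and 31.4 FPKM (log2 ratio 4.74). SMIM22, a small membrane protein, had 1.15, 31.2, 0.197 and 20.7 FPKM (log2 ratio 4.06). In each, both decitabine groups were far above both DMSO groups. Beside SPARC and PRF1, MAGEA4 was also higher in siStau1 DAC than in siLuc DAC, whereas UCHL1, VIM and SMIM22 were lower, and these differences were not tested here.

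Among called protein-coding genes of 1 FPKM or more in both groups, SAMD13 had the largest fall. It had 7.62, 0.460, 10.2 and 1.14 FPKM (log2 ratio -2.64), a smaller size than the rise of SPARC. HTR7, a serotonin receptor, had 19.3, 2.75, 18.4 and 3.26 FPKM (log2 ratio -2.53). WNT16, a secreted Wnt ligand, had 15.9, 1.06, 20.3 and 2.74 FPKM (log2 ratio -2.50). Both decitabine groups were under both DMSO groups for these genes. ADGRF1, an adhesion receptor, fell from 24.4 to 4.52 FPKM, TMSB15A, an actin-binding thymosin, from 34.5 to 8.11, and MYB, a transcription factor of progenitor cells, from 5.19 to 1.20. RAB26, a small GTPase of secretory vesicles, fell from 5.09 to 1.18 FPKM and OSGEPL1, a mitochondrial tRNA-modifying enzyme, from 8.45 to 2.03. Genes that fell below 1 FPKM included ZC3H6, a zinc finger gene, from 4.50 to 0.786, BTC, the growth factor betacellulin, from 2.39 to 0.623, PLCH1, a phospholipase C, from 2.31 to 0.330, and HMGN5, a nucleosome-binding protein, from 2.31 to 0.365.

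Of other biotypes, 58 of 702 tested lincRNAs were called higher and 3 lower, against 4.02% and 0.964% of all tested genes. MIR22HG, the host transcript of miR-22, rose from 1.14 to 5.22 FPKM, CYTOR from 33.2 to 99.6 and AC022784.1 from 2.96 to 21.6. Among called genes of 1 FPKM or more in both groups, the largest falls outside protein-coding genes were RN7SL5P, a 7SL pseudogene, from 74.8 to 22 FPKM, RPS3AP6, a ribosomal protein pseudogene, from 33.7 to 10.6, and AL161909.1 from 84.2 to 28.8. Reads of such copies may belong to their parent genes, and how the authors shared them is not given in the sources used here. RN7SL5P was listed at 0 in siLuc DAC.

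Cancer-testis and germline genes, which are silent by promoter methylation in most somatic cells, formed the list with the highest median. Of 53 members, 42 were tested, 28 were called higher and 0 lower. Of the tested members, 23 were listed at 0 in siLuc DMSO and passed the filter only through the other group, so the count over them, 22 called, describes the filter as well as the genes; of all tested genes listed at 0, 59.2% were called. Of the 19 tested members above 0 in siLuc DMSO, 6 were called higher, while 2.05% of all 16328 tested genes above 0 there were called higher. The size of the median depends on the constant added: 5.08 with 0.1 FPKM, 2.37 with 1 and 7.20 with 0.01. Among called members, GAGE2A had 0, 71.6, 0 and 48.5 FPKM, PAGE1 0, 57.5, 0 and 32.5, and PAGE2 0, 16.1, 0 and 22.5. These genes are near-identical copies within their families, so single members are uncertain. DAZL, an RNA-binding protein of germ cells, had 0, 12.3, 0 and 12.6 FPKM, and TDRD1, a Tudor protein of the piRNA pathway, had 0, 4.73, 0 and 6.16. Both were called and belong to no such cluster of copies. STK31, a germline kinase, was also high with Staufen1 siRNA alone, at 0.0155, 0.575, 0.600 and 1.09 FPKM. The 2 members abundant in siLuc DMSO were not called: MAGEB2 had 122 FPKM there and 101 in siStau1 DAC, and MAGEA3 had 45.8 and 51.2. On the X chromosome, which carries many of these families, 68 of 594 tested genes were called higher. Genes with the family names of cancer-testis antigens made up 37 of the 68, and 31 of the other 543 tested X genes were called higher, 5.71%.

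Histone genes of the HIST clusters included scarce and abundant copies. Of 55 protein-coding HIST1 genes, 23 were under 10 FPKM in siLuc DMSO and 21 of these were tested. Of the 21, 13 were called higher and 0 lower, with all 6 that were listed at 0 in siLuc DMSO among the 13, and a gene at 0 could enter the test only through a higher level. Of the 15 tested copies above 0 and under 10 FPKM, 7 were called, against 2.05% of all tested genes above 0 called higher. HIST1H1B, a linker histone, had 0, 279, 0 and 164 FPKM. HIST1H2BB had 3.84, 403, 6.94 and 187 FPKM, HIST1H3C 3.41, 371, 3.76 and 153, and HIST1H2AE 3.0, 223, 0.821 and 117. HIST1H4F went from 0 to 77.5 FPKM, HIST1H4L from 0 to 59.1, and HIST1H2BG rose from 0.743 to 54.4. Among abundant copies the values were otherwise: of 32 HIST1 genes with at least 10 FPKM in siLuc DMSO, 27 had a log2 ratio below 0, with a median of -0.35, and 0 were called higher. HIST1H2BD, with 1331 FPKM in siLuc DMSO and 695 in siStau1 DAC, was the 1 called lower, with q = 0.0581 when adjusted within the comparison. The copies were split here by their siLuc DMSO level, which also enters the ratio. All tested genes had a gradient of the same direction. Their median log2 ratio was 0.77 above 0 and up to 1 FPKM in siLuc DMSO, -0.09 above 10 and up to 100, and -0.26 above 100. The part of this gradient in the histone values was not tested. Histone copies are similar in sequence, so reads may have been shared between them. HIST1H1A, at 0.504, 67.7, 0.168 and 55.1 FPKM, was not called.

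Other genes with methylated promoters in colon cancer were mostly at or near 0. Of 40 members of that list, 22 were tested and 4 were called, all higher, against 4.02% of all tested genes. Of the 22, 3 were listed at 0 in siLuc DMSO, where 59.2% of all tested genes were called. CHFR, a mitotic checkpoint ubiquitin ligase, had 0, 3.99, 0 and 1.87 FPKM, ESR1, an estrogen receptor, 0, 1.56, 0.0570 and 0.599, and EYA4, a transcriptional coactivator, 0.0664, 0.374, 0 and 0.580. VIM was the fourth. TFPI2, a protease inhibitor, had 0, 4.42, 0 and 3.26 FPKM and was not called, with q = 0.0517 in the authors' deposited table.

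**Figure D2:**
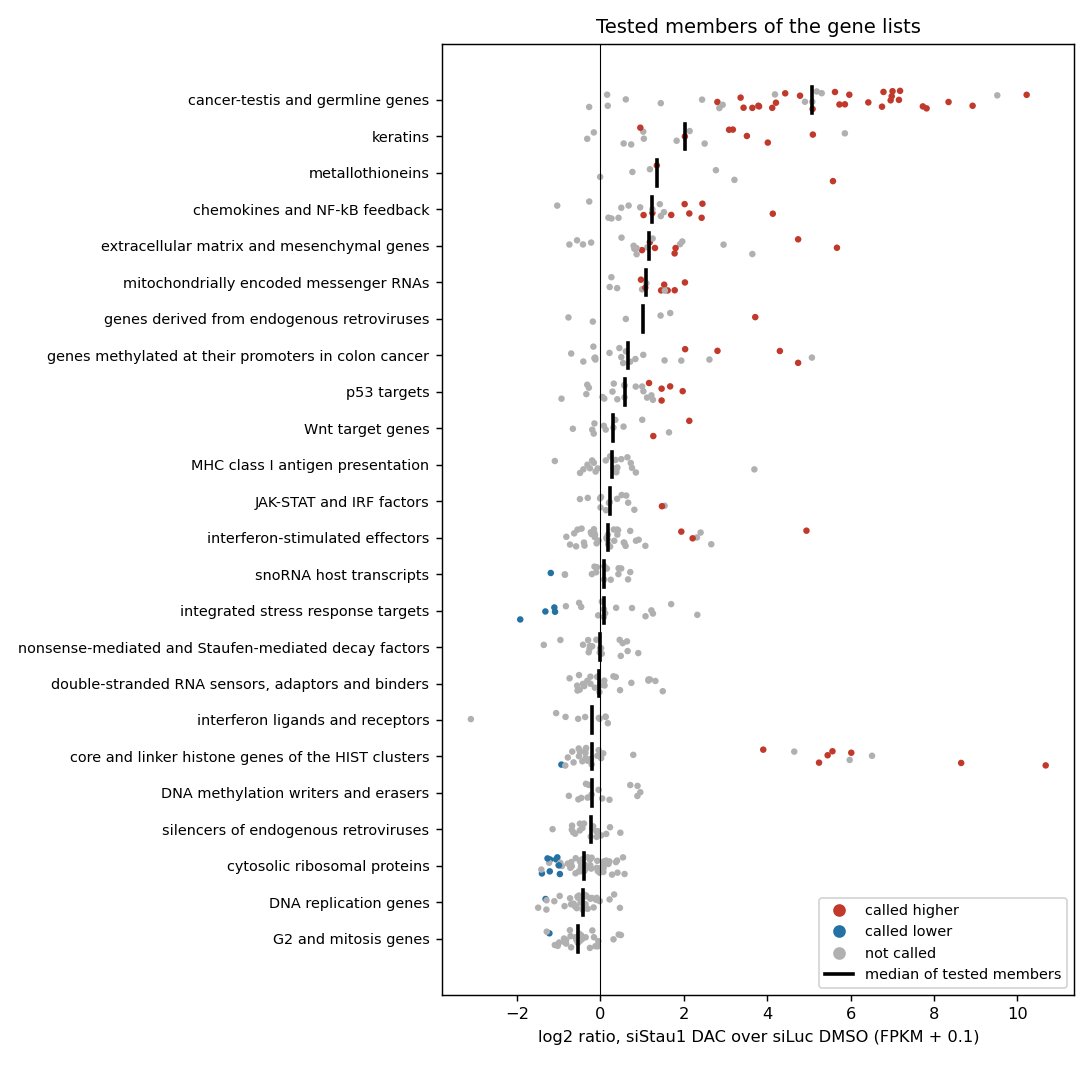
Each point is a tested member of a gene list, with its log2 ratio of siStau1 DAC over siLuc DMSO on the x axis, coloured by the authors' call, and the black bar is the median of the tested members. Cancer-testis and germline genes have the highest median at 5.08, G2 and mitosis genes the lowest at -0.54, and the HIST cluster genes fall apart into a group near 0 and a group above 3.

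Interferon-stimulated effectors, the antiviral proteins that interferon induces, were mostly close to their siLuc DMSO level. Of 40 members, 3 were called higher, against 4.02% of all tested genes, 0 lower, and 33 were within 2-fold. At an unadjusted p under 0.05 in Cuffdiff, 7 were higher and 0 lower, where 2305 of all 16909 tested genes had such a p in either direction. The list had a median log2 ratio of 0.18, or 0.15 after centring on GC content. The 3 were MX1, MX2 and XAF1. MX1 (chromosome 21, 41420304 to 41459214, plus strand), a dynamin-like GTPase that blocks viral replication, had 3.74, 266, 2.08 and 118 FPKM and a log2 ratio of 4.94. MX2, its relative, had 2.93, 19.8, 0.498 and 13.9 FPKM (log2 ratio 2.21), and XAF1, a pro-apoptotic gene, had 2.57, 16.9, 0.00595 and 10.1 (log2 ratio 1.94). All 3 were low in both DMSO groups and high in both decitabine groups. OAS2, an oligoadenylate synthetase, had a larger ratio than MX2, with 1.61, 15.8, 0.0735 and 10.7 FPKM, and was not called.

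The abundant members showed small net ratios between large differences in the other groups. ISG15 (chromosome 1, 1001138 to 1014540, plus strand), a ubiquitin-like modifier, had 1359.6, 4708, 320.0 and 2065 FPKM. The siStau1 DAC level of ISG15 lay above both DMSO groups and under siLuc DAC, with a log2 ratio of 0.60 and q = 0.339 in the authors' deposited table. IFITM1, a membrane protein that blocks viral entry, had 191, 562, 8.80 and 239 FPKM (log2 ratio 0.32). IFI27 had 402, 1138, 37.2 and 592 FPKM (log2 ratio 0.56). IFIT1, which binds foreign RNA ends, had 207, 83.6, 79.4 and 125 FPKM, highest in siLuc DMSO. The summed level of the 40 genes was 4903, 12389, 1313 and 6025 FPKM. In siStau1 DMSO, 37 of the 40 genes had their lowest level, and in siLuc DAC 31 had their highest. The siStau1 DAC level was above siStau1 DMSO for 40 genes and under siLuc DAC for 32. These counts use groups that are shared between the comparisons, and they describe an order of levels, not independent results.

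**Figure D3:**
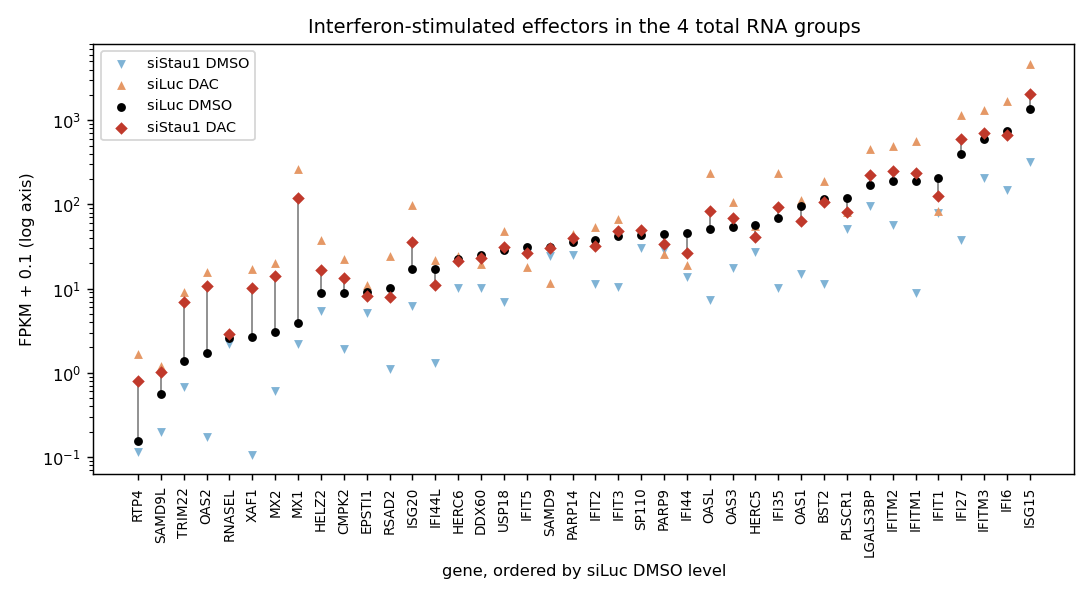
Each column is an interferon-stimulated effector with its FPKM plus 0.1 in the 4 total RNA groups on a log axis, ordered by the siLuc DMSO level, and grey lines join siLuc DMSO (black circles) to siStau1 DAC (red diamonds). The black and red symbols lie close together except at low genes such as MX1, at 3.74 and 118 FPKM, while siStau1 DMSO (light blue) is the lowest of the 4 for 37 of the 40 genes.

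Most of these genes carry a shared promoter element. The interferon-stimulated response element, bound by the factor complex that interferon activates, was searched on both strands as GAAA, any 2 bases and GAAA again, in the 250 bases before each RefSeq start (GRCh38.p14). It was present at any start in 24 of the 32 list members with a promoter in the table, 75%. Counted the same way, it was present in 3.63% of 15307 protein-coding genes. Counted by single promoter, the share was 3.02% of 35116. Promoters of ISG15 (chr1:1013247-1013496, plus strand) and IFITM1 (chr11:313790-314039, plus strand) are shown as members with small net ratios, with matches in capitals; the ISG15 matches overlap, at -113 and -107 from the start, and that of IFITM1 is at -40.
ISG15: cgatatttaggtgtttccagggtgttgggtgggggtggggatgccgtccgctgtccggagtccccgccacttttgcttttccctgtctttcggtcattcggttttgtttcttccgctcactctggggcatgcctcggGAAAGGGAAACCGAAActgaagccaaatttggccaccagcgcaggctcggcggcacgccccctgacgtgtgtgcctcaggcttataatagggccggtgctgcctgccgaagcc
IFITM1: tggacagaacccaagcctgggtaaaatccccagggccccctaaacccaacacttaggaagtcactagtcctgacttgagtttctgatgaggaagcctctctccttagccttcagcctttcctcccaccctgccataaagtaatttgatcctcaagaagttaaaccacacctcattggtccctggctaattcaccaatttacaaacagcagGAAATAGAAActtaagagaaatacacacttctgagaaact
The 24 members with the element had a median log2 ratio of -0.09 here and 2.64 for siLuc DAC over siStau1 DMSO, and the 8 without it had 0.50 and 2.86. A match is a run of letters and not a measured binding site.

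Genes upstream of these effectors had 0 or 1 call per list. Of all tested genes, 4.98% were called in either direction, so such counts in lists this short say little. Of 10 tested interferon ligands and receptors, 0 were called by Cuffdiff, also at an unadjusted p under 0.05. Such a p was found for 2305 of all 16909 tested genes, in either direction. IFNB1, a type I interferon, had 2.63, 1.27, 0 and 0.216 FPKM, the lowest ratio of the list at -3.11, with q = 0.305 in the authors' deposited table. IFNL1, a type III interferon, had 3.97, 15.5, 0.0589 and 2.71 FPKM. For both ligands siStau1 DAC lay under both luciferase groups and above siStau1 DMSO. Of 25 tested sensors, adaptors and binders of double-stranded RNA, 0 were called by Cuffdiff, and 4 were higher at an unadjusted p under 0.05. MDA5, encoded by IFIH1, had 27.2 FPKM in siLuc DMSO and 29.1 in siStau1 DAC, RIG-I, encoded by DDX58, had 41.5 and 53.5, and ADAR, which edits double-stranded RNA, had 120.9 and 120.3. STAU2, the paralogue of Staufen1, had 27.9, 7.33, 40.2 and 16.7 FPKM. Among 15 JAK-STAT and IRF factors, IRF7, the factor that amplifies interferon transcription, was the 1 called, with 11.8, 78.5, 6.11 and 32.9 FPKM (log2 ratio 1.47). Of all tested genes, 4.02% were called higher. Of 22 genes of MHC class I antigen presentation, 0 were called by Cuffdiff, and at an unadjusted p under 0.05 there were 3 higher and 1 lower. HLA-B had 422, 1113, 183 and 542 FPKM. B2M, the light chain of MHC class I, had 1442, 599, 800 and 675 FPKM and q = 0.0507 in the authors' deposited table. PSMB8, an immunoproteasome subunit, had the highest ratio of this list, at 0.823, 27.4, 0.519 and 11.8 FPKM.

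Chemokines and NF-kB feedback genes, which inflammatory signals induce, had 8 of 20 tested members called higher, against 4.02% of all tested genes, and 0 lower, with a median log2 ratio of 1.24, or 1.33 after centring on GC content. TNF, an inflammatory cytokine, was listed at 0 in siLuc DMSO and had 2.54, 0.0136 and 1.65 FPKM in the other groups. Of all tested genes listed at 0 in siLuc DMSO, 59.2% were called. IL32, a cytokine, had 5.45, 55.9, 2.82 and 30.1 FPKM (log2 ratio 2.45), and ICAM1, an adhesion receptor, had 1.49, 11.9, 0.652 and 8.46 (log2 ratio 2.43). CXCL8, the neutrophil chemokine interleukin-8 (chromosome 4, 73740506 to 73743716, plus strand), had 6.06, 14.9, 2.14 and 19.9 FPKM (log2 ratio 1.70). CXCL1 (chromosome 4, 73869393 to 73871242, plus strand), which binds the same receptor, had 3.54, 16.1, 1.72 and 15.8 FPKM (log2 ratio 2.13). RELB and NFKB2, subunits of the non-canonical NF-kB dimer, rose from 4.22 to 17.4 and from 19.2 to 45.7 FPKM. NFKBIA, the NF-kB inhibitor, rose from 53.2 to 109 FPKM. CXCL10, a chemokine that interferon induces, had 1.53, 1.16, 0.0202 and 0.695 FPKM and was not called. Promoters of CXCL8 (chr4:73740319-73740568, plus strand) and CXCL1 (chr4:73869143-73869392, plus strand) are shown for their NF-kB element, searched as GGAANTTCC on both strands, in capitals at -91 and -78.
CXCL8: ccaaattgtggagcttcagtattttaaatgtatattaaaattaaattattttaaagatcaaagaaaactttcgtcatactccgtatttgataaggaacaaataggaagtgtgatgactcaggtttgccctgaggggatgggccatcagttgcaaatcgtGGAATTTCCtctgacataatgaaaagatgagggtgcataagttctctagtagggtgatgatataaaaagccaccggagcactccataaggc
CXCL1: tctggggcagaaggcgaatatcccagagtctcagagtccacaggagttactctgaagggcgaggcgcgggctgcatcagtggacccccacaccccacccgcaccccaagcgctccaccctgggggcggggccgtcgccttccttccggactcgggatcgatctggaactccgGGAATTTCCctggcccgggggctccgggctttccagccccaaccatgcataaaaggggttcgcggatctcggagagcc
That element was in 0.826% of 35116 promoters. Of the 23 list members 18 had a promoter in the table, too few for a share over the list.

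Several genes of differentiation and the extracellular matrix rose. Of 17 tested keratins, the intermediate filaments of epithelia, 7 were called higher, against 4.02% of all tested genes, and 0 lower, with a median log2 ratio of 2.02, or 1.64 after centring on GC content. KRT20, a keratin of differentiated intestinal epithelium (chromosome 17, 40875941 to 40885227, minus strand), had 1.16, 6.24, 3.09 and 20.2 FPKM (log2 ratio 4.01). KRT23 had 22.9, 43.8, 26.1 and 93.4 FPKM (log2 ratio 2.02). Both were highest in siStau1 DAC, whereas KRT17, at 4.37, 198, 0.585 and 40.3, and KRT7, at 4.77, 96.8, 1.82 and 41.2, were highest in siLuc DAC. KRT14, a keratin of basal epithelium, was listed at 0 in siLuc DMSO, where 59.2% of all tested genes were called, and had 3.32 FPKM in siStau1 DAC. KRT13 rose from 0.629 to 8.21 and KRT19 from 537 to 1041. KRT18 and KRT8, the keratins of simple epithelia, had ratios of 1.83 and 1.04 and were not called.

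Of 22 tested matrix and mesenchymal genes, 7 were called higher, against 4.02% of all tested genes, and 0 lower, with a median log2 ratio of 1.15. Beside SPARC and VIM, LAMB3, a chain of epithelial laminin, rose from 6.61 to 22.9 FPKM and COL6A1, a collagen VI chain, from 3.84 to 13.6. TIMP1, a metalloprotease inhibitor, rose from 92.8 to 211 FPKM. TWIST1 and FN1, which mark mesenchymal conversion, had 1.30 and 5.95 FPKM in siLuc DMSO against 0.943 and 3.51 in siStau1 DAC and were not called. THY1, a fibroblast marker, rose from 0.0342 to 2.22 FPKM, and the part of fibroblast markers in these counts was not tested. Metallothioneins, which bind zinc and copper, had 2 of 7 tested members called higher, against the same 4.02%. MT1E rose from 68.8 to 176 FPKM, and MT1G had 0, 6.17, 0 and 4.67 FPKM. Of 13 tested Wnt targets, 2 were called higher, against 4.02%. CCND1, which encodes cyclin D1, rose from 69.6 to 168 FPKM and NOTUM, a Wnt inhibitor, from 0.990 to 4.67. Of 6 tested genes derived from endogenous retroviruses, ERVH48-1, which encodes suppressyn, was the 1 called, against 4.02%, at 0, 0.902, 0 and 1.21 FPKM. MT1G and ERVH48-1 were listed at 0 in siLuc DMSO, where 59.2% of all tested genes were called.

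Targets of p53, which is intact in HCT116, were higher in part. Of 23 tested members, 5 were called higher, against 4.02% of all tested genes, and 0 lower, with a median log2 ratio of 0.58. CDKN1A (chromosome 6, 36676460 to 36687339, plus strand), which encodes the cell cycle inhibitor p21, had 51.1, 192, 47.5 and 163 FPKM (log2 ratio 1.67). PLK3, a stress kinase, had 5.38, 29.3, 3.48 and 21.4 FPKM (log2 ratio 1.97), and GDF15, a secreted stress factor, had 21.8, 86.5, 18.0 and 60.4 (log2 ratio 1.47). ZMAT3, an RNA-binding target, followed the siRNA groups instead, at 1.46, 2.22, 3.9 and 4.22 FPKM (log2 ratio 1.47). AEN, a p53-induced nuclease, rose from 21.3 to 48.0 FPKM. MDM2, the p53 inhibitor, had 85.3, 116, 127 and 153 FPKM and was not called.

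Proliferation genes mostly had ratios below 0, with few calls, where 0.964% of all tested genes were called lower. Of 31 G2 and mitosis genes, 28 had a log2 ratio below 0, with a median of -0.54, while 52.4% of all tested genes lay above 0. HMMR, a spindle protein, was the 1 called, at 39.3, 4.43, 81.0 and 16.8 FPKM, and its call was lost when adjusted within the comparison (q = 0.0631). Of 35 DNA replication genes, 32 lay below 0, with a median of -0.43, and POLE2, a subunit of DNA polymerase epsilon, was the 1 called, at 20.3, 5.51, 23.6 and 8.08 FPKM, and its call was lost in the same way (q = 0.0631). The median after centring on GC content was -0.34 for the mitosis genes and -0.37 for the replication genes. CDC20 and UBE2C, which act in the anaphase-promoting complex, lay on the other side, at 139 and 99.9 FPKM in siLuc DMSO and 189 and 140.3 in siStau1 DAC, and were not called. Counts of 0 in the 3 short lists that follow say little, since 4.98% of all tested genes were called in either direction. Of 15 writers and erasers of DNA methylation, 0 were called: DNMT1, the maintenance methyltransferase, had 115, 86.2, 204 and 79.4 FPKM, DNMT3A 1.79, 2.52, 1.92 and 2.99, and DNMT3B 9.42, 11.2, 8.65 and 9.70. At an unadjusted p under 0.05 in Cuffdiff, 2 of the 15 were higher, where 2305 of all 16909 tested genes had such a p in either direction. Of 19 silencers of endogenous retroviruses and 19 factors of nonsense-mediated and Staufen-mediated decay, 0 were called by Cuffdiff, with medians of -0.23 and -0.02, and at that p there were 2 lower among the silencers and 1 higher and 2 lower among the decay factors. MPHOSPH8, a chromatin reader of the HUSH silencing complex, had the lowest silencer ratio, at 26.6, 7.20, 27.8 and 12.0 FPKM. UPF1, the helicase that Staufen1 recruits for decay, had 15.3, 36.9, 10 and 21.4 FPKM.

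Genes of amino acid synthesis and stress were among the called falls. Of 19 tested targets of the integrated stress response, 4 were called lower, against 0.964% of all tested genes, and 0 higher. The list as a whole had no single direction: 11 members lay above 0 and 8 below, with a median log2 ratio of 0.08. At an unadjusted p under 0.05 in Cuffdiff 4 were higher and 4 lower, against 2305 of all 16909 tested genes in either direction. Among the uncalled members above 0, CHAC1, a glutathione-degrading enzyme, had 2.83 FPKM in siLuc DMSO and 6.72 in siStau1 DAC, and ATF3, a stress transcription factor, had 28.7 and 60.8. DDIT4, an inhibitor of mTORC1, had 62.9, 24.4, 23.4 and 16.5 FPKM (log2 ratio -1.92). ASNS, asparagine synthetase, had 136, 70.0, 83.3 and 54.5 FPKM (log2 ratio -1.32). PHGDH and PSAT1, enzymes of serine synthesis, had 68.2, 57.7, 50.5 and 31.6 FPKM and 60.9, 30.3, 53.3 and 28.6. For these 4 called genes siLuc DMSO was the highest group and siStau1 DAC the lowest. The comparison of siLuc DAC over siStau1 DMSO, in which 9.37% of tested genes were called higher, called 8 of the 19 higher and 0 lower. ATF4, the factor that drives these targets, had 303, 316, 204 and 220 FPKM.

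Some ribosomal protein transcripts fell, and several mitochondrial ones rose. Of 57 ribosomal protein genes, 8 were called lower and 0 higher, against 0.964% of all tested genes called lower, and 43 lay below 0, with a median of -0.39. These genes are abundant, with a summed level of 102173 FPKM in siLuc DMSO. Of all 1028 tested genes above 100 FPKM there, 5.74% were called lower, with a median log2 ratio of -0.26. The part of this level gradient in the ribosomal protein values was not tested. RPL34 had 774, 177, 855 and 292 FPKM (log2 ratio -1.40), RPS7 1038, 279, 1066 and 430.1 (-1.27), RPS3A 1843, 415, 2052 and 793 (-1.22) and RPL5 1493, 349, 1789 and 646 (-1.21). All 4 were low in both decitabine groups. Ribosomal protein genes share sequence with many pseudogenes. The 8 called members had a median transcript GC content of 42.3%, against 50.2% in the other members, and Spearman's rho between GC content and log2 ratio was 0.65 across the 57 genes, which are not independent replicates. SNHG6, a host transcript of small nucleolar RNA, had 328 and 143 FPKM in siLuc DMSO and siStau1 DAC and was the 1 called of 16 tested, with q = 0.0657 when adjusted within the comparison.

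All 13 mitochondrially encoded messenger RNAs had log2 ratios above 0, with a median of 1.10, or 1.31 after centring on GC content, and 7 were called higher, against 4.02% of all tested genes. MT-ND1, a subunit of complex I, had 34.0, 267, 42.4 and 139 FPKM (log2 ratio 2.03). MT-ND2 had 21.7, 139, 26.4 and 74.7 FPKM (log2 ratio 1.78). MT-ND5 rose from 25.1 to 77.1 FPKM and MT-ND4 from 57.3 to 166. MT-RNR1 and MT-RNR2, the mitochondrial ribosomal RNAs, were also called, from 52.7 to 143 and from 280 to 828 FPKM. Ribosomal RNA was depleted during library preparation, so their levels also depend on that step, and its part was not tested.

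The ratio followed transcript GC content. Across 11020 protein-coding genes of 1 FPKM or more in both, Spearman's rho between GC content and log2 ratio was 0.446, while rho with transcript length was 0.083. The median log2 ratio went from -0.37 in the 551 genes of lowest GC content to 0.59 in the 551 of highest. In the lowest bin 3 genes were called higher and 13 lower, and in the highest 28 higher and 0 lower. The trend was also present for siLuc DAC over siStau1 DMSO, with rho 0.723 across 10851 genes and medians from -1.25 to 1.46. Centring the ratios within 20 GC bins left 882 genes beyond 2-fold, against 1202 before, and 659 were beyond 2-fold both times. All 348 called protein-coding genes of this set kept their sign. The subtracted bin medians ran only from -0.37 to 0.59 and most called ratios were beyond 2-fold, so few signs could have changed. The part of GC content in the gene lists beyond these centred medians was not tested.

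**Figure D4:**
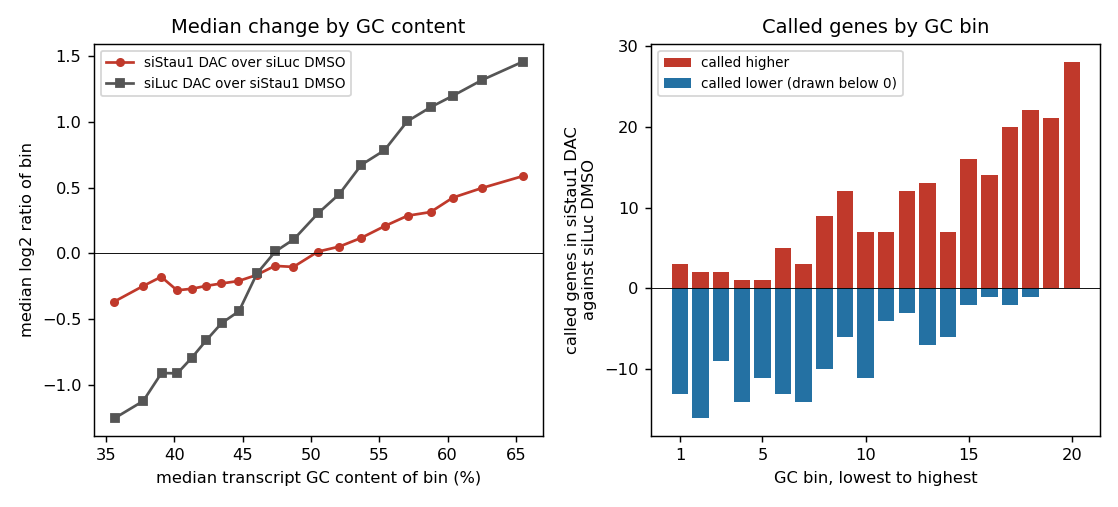
Left, the median log2 ratio of protein-coding genes in 20 bins of transcript GC content for siStau1 DAC over siLuc DMSO (red circles) and siLuc DAC over siStau1 DMSO (grey squares). Right, the number of genes called in siStau1 DAC against siLuc DMSO in each bin, with lower calls drawn below 0. Both lines climb with GC content, from -0.37 to 0.59 and from -1.25 to 1.46, and lower calls give way to higher calls.

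The comparison of siLuc DAC over siStau1 DMSO shares no library with that of siStau1 DAC over siLuc DMSO, and in both the decitabine group stands on top. It called 2941 of 17632 tested genes, 16.7%. Of the 842 genes called between siStau1 DAC and siLuc DMSO, 781 were tested there and 766 had the same sign, 98.1%, while the same sign was found for 77.4% of all 16014 genes tested in both. Of the 842, 344 were listed at 0 in siLuc DMSO and 7 at 0 in siStau1 DAC, so their direction here was fixed. A tested gene at 0 in siStau1 DMSO likewise had a fixed direction there. Both ratios also rose with GC content. The part of these in the shared signs was not tested. Genes called in both numbered 557, which is 66.2% of the calls described here and 18.9% of those there. CMTM1, a chemokine-like gene, was the 1 of the 557 with opposite signs, at 0.179, 0.0450, 0.803 and 0.798 FPKM, so that it was higher in both Staufen1 siRNA groups. Among called genes with at least 1 FPKM in all 4 groups, 198 higher genes had a median log2 ratio of 1.53 here and 2.25 there, and 171 were larger there. The 145 lower genes had medians of -1.26 and -2.04, and 118 were larger there. The genes called there and not here numbered 2201, and 1724 of them were within 2-fold between siStau1 DAC and siLuc DMSO. For the interferon-stimulated effectors the median ratio was 0.18 with 3 of 40 called here, and 2.82 there with 24 called higher and 1, SAMD9, lower, where 9.37% and 7.31% of all tested genes were called in these directions. MHC class I genes had a median of 0.27 with 0 called here and 2.0 with 11 called there, and the medians were 0.056 and 1.11 after centring on GC content. The difference between the comparisons was not tested for any list.

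**Figure D5:**
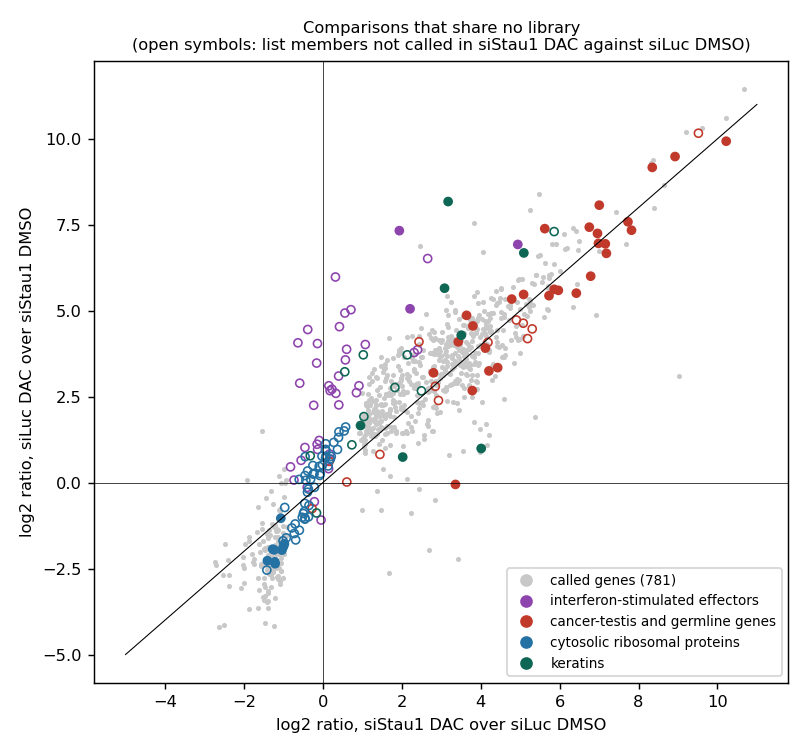
Each point is a gene tested in both comparisons, with its log2 ratio of siStau1 DAC over siLuc DMSO on the x axis and of siLuc DAC over siStau1 DMSO on the y axis; grey points are the 781 called genes, colours mark 4 gene lists, filled where called on the x axis. Most called genes lie in the quadrants of equal sign, 766 of 781, and interferon-stimulated effectors (purple) stand in a column near 0 on the x axis and up to 7.33 on the y axis.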

How the data were processed

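Total RNA of HCT116 cells was sequenced in 4 groups of 2 libraries. Per the submitters' processing notes, the tools named were bcl2fastq 2.20, HISAT2 2.1.0, featureCounts, DESeq 1.36.0, Cuffdiff 2.2.1 and Cuffnorm 2.2.1, with the build hg38 and no roles stated. The authors deposited a table with 1 FPKM value per gene and group, in the layout of Cuffdiff per the file headers, normalized for transcript length and library size. The authors' p-value and q-value were used as deposited. Recomputing showed that the q-value adjusts over 102180 tests, those of all 6 comparisons, by the Benjamini-Hochberg method (gap of at most 5.27e-07). No deposited p-value is under 5e-05 and no q-value under 0.00162.

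With 1 value per group, fits per library, replicate checks and tests of this work were not possible, and depth is unknown. Log2 ratios used a pseudocount of 0.1 FPKM, and a limit of 1 FPKM where stated. The table's 58699 identifiers all matched GENCODE 29, which gave positions, biotypes, and the GC content and length of each longest transcript. Centring subtracted the median ratio within 20 GC bins. Promoters are RefSeq sequences of GRCh38.p14. Intervals of medians are 95% order-statistic intervals over genes. Python 3.11.15, pandas 2.3.3 and scipy 1.17.1 were used. The code for q-value adjustment, GC centring and intervals was tested on simulated data.

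The members and the 28 gene lists were chosen with earlier results of these data known. Named genes were the 8 largest rises and 8 largest falls among called protein-coding genes of 1 FPKM or more in both groups, the 6 most abundant called genes from under 1 FPKM, the 4 that fell under 1 FPKM, the 3 largest rises and falls of other biotypes, the 4 largest changes per list and a fixed set of single genes. Further list members were named after their values were seen. The 3 libraries of antibody-bound RNA were not used here.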

Additional observations from a re-analysis of the deposited data

How the results depend on the processing

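No paired analysis was possible because the table gives 1 value per group, and for the same reason no library could be left out. The 842 calls became 514 at a q-value under 0.01, 359 with at least 1 FPKM in both groups and 491 without genes listed at 0 in either group, an alternative chosen after seeing the data. With the q-value adjusted within this comparison there were 714, 596 higher and 118 lower, and the called members went from 28 to 25 for cancer-testis genes, 8 to 7 for NF-kB genes, 8 to 6 for HIST and for ribosomal protein genes, 7 to 5 for mitochondrial messenger RNAs, 7 to 6 for keratins and for matrix genes, 4 to 3 for genes methylated in colon cancer, 2 to 1 for colon epithelial markers, and 1 to 0 for the mitosis, replication and snoRNA host lists. The 679 higher calls became 210 and 335 with at least 1 FPKM in both groups and without genes listed at 0, and the 163 lower calls became 58 at a q-value under 0.01. The median log2 ratio of -0.016 became 0.11 with sums over protein-coding genes made equal, a shift of 0.13 for every gene before the constant is added, 0 by construction with the median subtracted, and 0.025 with at least 1 FPKM in either group. The 556 shared calls of equal sign with siLuc DAC over siStau1 DMSO became 322 at a q-value under 0.01 and 284 with at least 1 FPKM in all 4 groups. Of 144 recomputed list medians, 4 changed sign: the double-stranded RNA sensors to 0.10 with equal sums and 0.046 with GC centring, the stress response targets to -0.15 with GC centring and the decay factors to 0.11 with equal sums. Among 415 recomputed values of 83 called named genes, 0 changed sign. Another constant cannot change a sign, and the shift with equal sums was only 0.13, so this count says little about how stable the calls are. Depth could not be assessed.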
